A study of Mus musculus with 6 samples.

Results

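Gabra2, Gabra4, Gabra5, Gabra6, Gabrb1, Gabrb2 and Gabrd encode subunits of the GABA-A receptor. They were chosen by gene symbol, each matched exactly 1 row of the count table through its NCBI gene identifier, and they are 7 of its 24594 entries. The counts came from nuclear RNA of sorted cerebellar nuclei of mice aged 7 months. One group was Ezh1 wt/wt; Neurod1-Cre (WT, 3 libraries) and the other Ezh1 cKO/cKO; Neurod1-Cre (cKO, 3 libraries), so that both genotypes carried the Cre recombinase. Ezh1 is a catalytic subunit of the Polycomb repressive complex PRC2, and the comparison asks how loss of Ezh1 in granule cells changes nuclear RNA. Neurod1-Cre acts where the Neurod1 promoter is or was active, which includes granule neurons, and nuclei were selected with an antibody against NeuN, a neuronal nuclear protein that granule cells carry.

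GABA-A receptors are chloride channels built of subunits arranged around a central pore, usually of α, β and γ or δ types, and they open when GABA binds between an α and a β subunit. Receptors with a γ subunit typically gather at synapses and give brief inhibition, whereas receptors with δ lie outside the synapse and give tonic inhibition. In the cerebellum granule cells are known for the α6 subunit, which pairs with δ in tonic receptors and also takes part in synaptic ones. Most subunit genes lie in clusters on a few chromosomes. In the mouse Gabra2, Gabra4 and Gabrb1 share a cluster on chromosome 5, and Gabra6 and Gabrb2 one on chromosome 11. Gabra5 belongs to a cluster on chromosome 7. Gabrd lies on chromosome 4, apart from the subunit genes Gabrr1 and Gabrr2 on the same chromosome.

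The promoter windows of Gabra6 and Gabra2 are shown because these genes stand at opposite ends of the tested members by level and because PRC2 is known to favour DNA rich in unmethylated CG dinucleotides. Each window holds the 250 bases before the annotated start, from RefSeq (GRCm38.p6), written 5′ to 3′ on the strand of the gene, and the capitals mark CG dinucleotides.
Gabra6, chr11:42321073-42321322, minus strand: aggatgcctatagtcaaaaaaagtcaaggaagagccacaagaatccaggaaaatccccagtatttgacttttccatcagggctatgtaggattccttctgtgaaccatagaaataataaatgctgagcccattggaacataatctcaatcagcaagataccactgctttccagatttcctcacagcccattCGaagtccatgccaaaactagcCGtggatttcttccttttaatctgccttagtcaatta
Gabra2, chr5:71095850-71096099, minus strand: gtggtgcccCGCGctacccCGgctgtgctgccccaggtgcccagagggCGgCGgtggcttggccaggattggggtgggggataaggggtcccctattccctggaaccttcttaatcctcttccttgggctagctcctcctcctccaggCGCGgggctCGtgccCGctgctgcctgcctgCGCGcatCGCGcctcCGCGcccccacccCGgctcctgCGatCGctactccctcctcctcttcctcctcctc
The Gabra6 window held 2 CG dinucleotides and 40.8% G and C, and 71.0% of the 32851 windows in the table held more CG. The Gabra2 window held 18 CG and 70.0% G and C, and 19.7% of windows held more. The median window held 6. Windows were found for 6 of the 7 members, 9 windows in all, and not for Gabrd. The other windows held 12 CG for Gabra4, 9 for Gabra5, 18 and 6 for Gabrb1, and 8, 8 and 4 for Gabrb2. Gabra5, lowest of the members in level, thus held fewer CG than Gabra2. Gabrb1, higher in level than Gabra2, held as many in 1 window. Whether CG number relates to level was not tested. Nuclear factor I proteins are known regulators of Gabra6 in maturing granule cells, and their half-site TTGGC, searched on both strands, was in 5 of the 9 windows, the Gabra6 window among them, against 41.5% of all windows. The full palindrome, TTGGC and GCCAA with 5 bases between, was in 0 of the 9 windows and in 0.0365% of all windows. These matches describe letters only, and no binding or methylation data enter here.

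The libraries held 6340236 to 8284768 counts. The labels do not say that libraries came from separate animals, and p-values here measure spread between libraries that may be technical in part. Replicate 1 of each genotype had Xist at 811 and 831 CPM and summed Y-linked genes at 1.51 and 2.45 CPM, and the other 4 libraries had Xist at 1.39 to 4.46 CPM and Y-linked genes at 123 to 148 CPM, so each genotype mixes the sexes in the same way. Here CPM are counts scaled to 1000000 of a library's total times its TMM factor. Ezh1, the targeted gene, was at 71.0, 75.7 and 83.3 CPM in WT and at 52.5, 51.0 and 55.6 CPM in cKO, a log2 fold change of -0.53 (SE 0.10, edgeR adjusted p = 0.00672). The log2 fold change stayed near this size without WT replicate 3 (-0.47, adjusted p = 0.115) and without cKO replicate 1 (-0.53, adjusted p = 0.0833), though neither passed the threshold. Ezh1 RNA in cKO was thus at 0.691-fold of WT. The labels do not say which exons the allele removes, so these counts do not show how far Ezh1 function was lost. All 12 granule cell markers were detected, at 5152 to 5324 CPM in sum in WT and 4836 to 5801 in cKO.

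Counted per length, the α6 and δ genes led the members, and their order was the same in both genotypes. Levels per length are CPM divided by the kilobases of merged exon in GENCODE, and fold differences between genes depend on the length used. They are levels in nuclear RNA, which includes unspliced transcripts. Over all 6 libraries Gabra6 was at 63.4 ± 2.67 CPM per kb (SD, n = 6) and ranged from 59.8 to 66.4. Gabrd followed at 32.9 ± 2.31, and Gabrb2, which encodes a main β subunit of granule cells, at 12.6 ± 1.38. By merged exon length Gabra6 was thus 1.93-fold above Gabrd and Gabrd 2.6-fold above Gabrb2, and their ranges did not meet. By coding length the means of Gabra6, Gabrd and Gabrb2 were 116.1, 70.1 and 52.35 CPM per kb. By gene span they were 10.78, 7.20 and 0.377. The margins thus depend on the length, and the counted region is not given.

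The remaining 4 members were lower, and 3 of them are those of the chromosome 5 cluster. Gabrb1 was at 2.25 ± 0.72 CPM per kb (SD, n = 6), Gabra4 at 1.40 ± 0.19 and Gabra2 at 0.456 ± 0.059. Gabra5, an α subunit best known from hippocampal pyramidal cells, was at 0.0749 ± 0.0518. By merged exon length Gabrb1 (1.12 to 2.85) and Gabra4 (1.21 to 1.68) overlapped in range. Within single libraries Gabrb1 was above Gabra4 in all but cKO replicate 2 (1.12 and 1.24 CPM per kb). The ranges of every other pair of neighbours in the order were separate. With coding length in place of exon length the order stayed as it was, with Gabrb1 further above Gabra4 (means 21.9 and 4.92 CPM per kb). With the whole gene span Gabra4 passed Gabrb1 (0.0963 and 0.0634 CPM per kb).

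**Figure D1:**
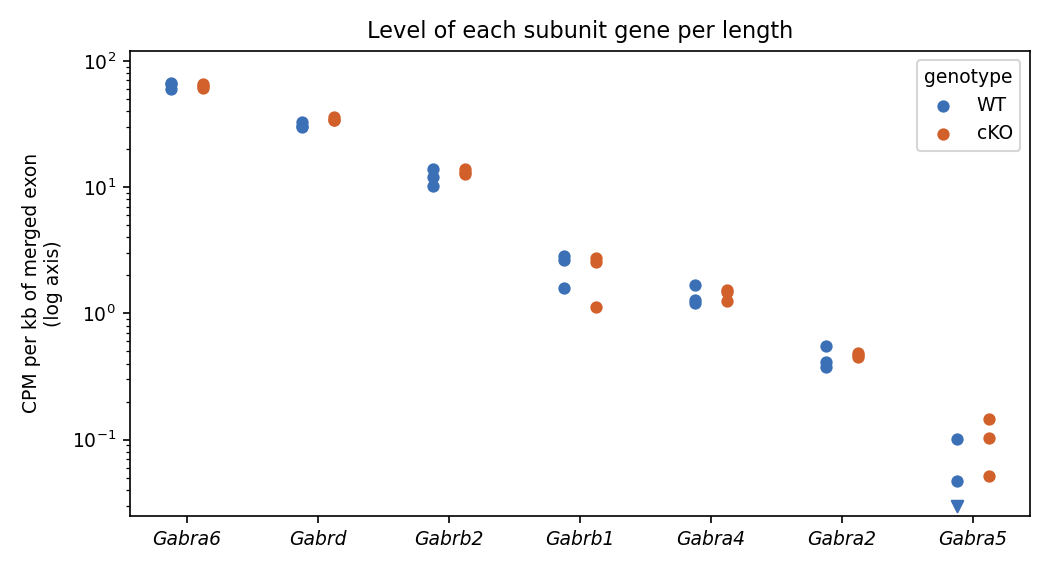
Level of each subunit gene in CPM per kb of merged exon (log axis), with 1 point per library, blue for WT and orange for cKO; the triangle marks the WT library with 0 Gabra5 counts. Gabra6, Gabrd and Gabrb2 form separate bands above 10 CPM per kb, and the Gabrb1 and Gabra4 points overlap.

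None of the members passed the test between genotypes, and the intervals of Gabra6, Gabrd and Gabrb2 were the narrowest. Of 13115 genes tested, 76 were called at an edgeR adjusted p below 0.05 (0.579%, with 0.32% higher and 0.259% lower in cKO). Of the 6 members that passed the filter on low counts, 0 were called by edgeR and 0 by limma-voom. DESeq2 called 0 as well and gave 2 of them no adjusted p, as for 7522 of all 13115 genes. None was below an unadjusted p of 0.05 in edgeR, a level that 11.9% of all genes tested reached. The log2 fold changes were positive for 4 and negative for 2, with a median of 0.05 beside -0.01 over all genes tested. The 95% interval lay within 2-fold in either direction for 5 of the 6, Gabrb1 being the exception, and for 10621 of all 13115 genes. These are bulk libraries, in which fewer cells of a type and less RNA per cell cannot be told apart.

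**Figure D2:**
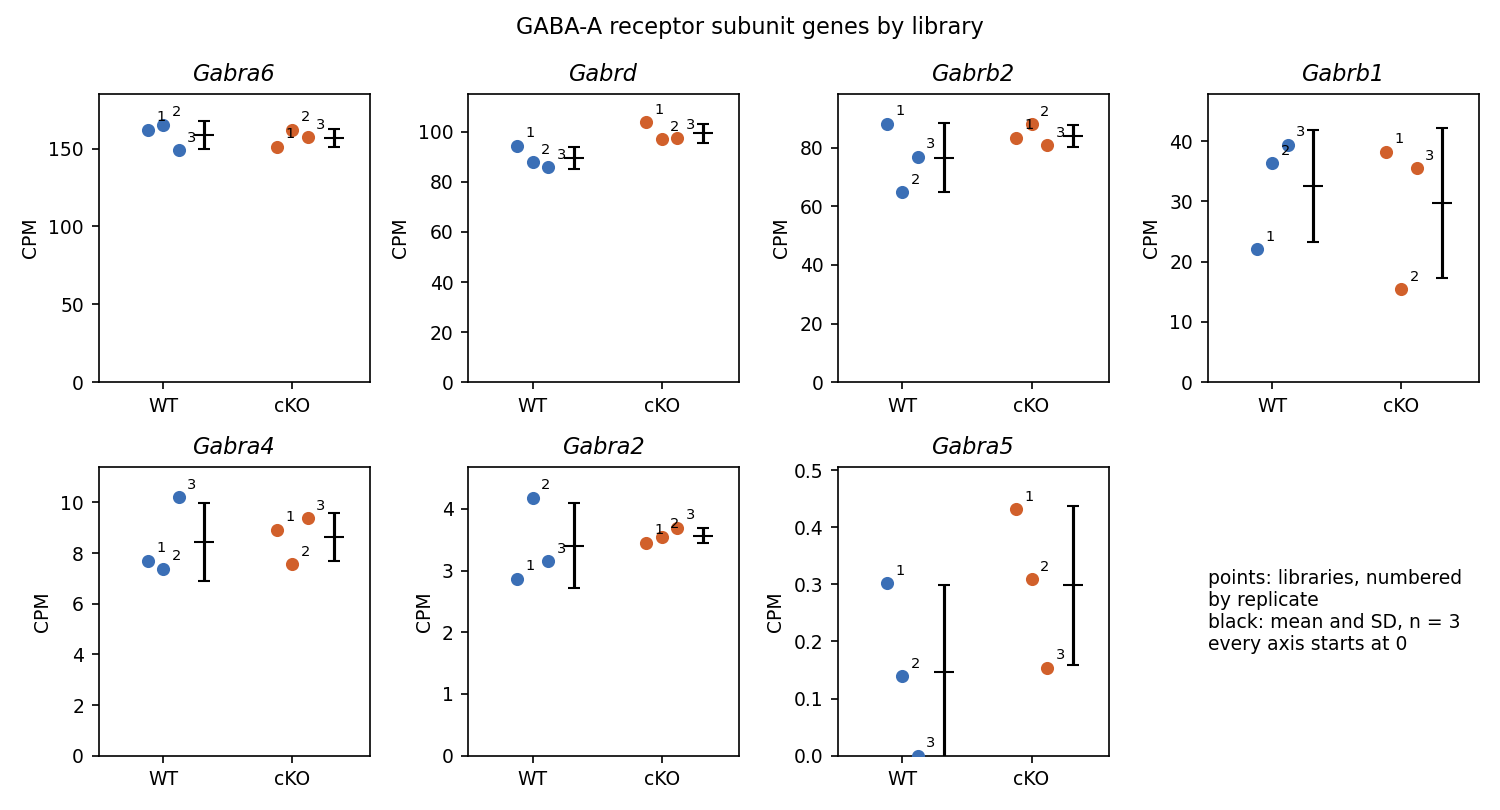
CPM of the 7 genes in each library, blue for WT and orange for cKO, numbered by replicate, with the mean and SD of 3 libraries in black; every axis starts at 0. The Gabrd points of cKO, from 97.0 to 103.9, all lie above those of WT, from 85.9 to 94.4, and for the other genes the genotypes overlap.

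Gabra6 (NCBI gene 14399; chromosome 11, 42306437 to 42321072, minus strand) showed almost the same level in both genotypes. It was at 162.1, 165.4 and 148.8 CPM in WT replicates 1 to 3 and at 151.1, 162.1 and 157.1 CPM in cKO replicates 1 to 3. All cKO libraries lay between the lowest and the highest WT library. The means were 158.8 ± 8.77 and 156.8 ± 5.54 CPM (SD, n = 3 each), the log2 fold change was -0.02 (SE 0.08, 95% interval -0.18 to 0.15), and the edgeR adjusted p was 0.957. On a linear scale that interval runs from 0.881-fold to 1.11-fold, and it rests on 1021 to 1226 counts per library. The sign of this difference turned positive when libraries were scaled by size alone (log2 fold change 0.02).

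Gabra4 (NCBI gene 14397; chromosome 5, 71569734 to 71658308, minus strand) encodes α4, which joins δ in tonic receptors of thalamus and dentate gyrus. It was at 7.71, 7.38 and 10.2 CPM in WT and 8.92, 7.57 and 9.39 CPM in cKO, with all cKO libraries inside the WT range. The log2 fold change was 0.03 (SE 0.23, 95% interval -0.44 to 0.49, edgeR adjusted p = 0.980). Gabra2 (NCBI gene 14395; chromosome 5, 70958392 to 71095849, minus strand) encodes α2, a synaptic subunit prominent in the forebrain. It was at 2.87, 4.18 and 3.16 CPM in WT and 3.45, 3.55 and 3.69 CPM in cKO, again inside the WT range, with a log2 fold change of 0.07 (SE 0.35, 95% interval -0.65 to 0.78, edgeR adjusted p = 0.964). These values rest on 19 to 30 counts per library, so changes within that interval were not detectable at this depth.

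Gabra5 (NCBI gene 110886; chromosome 7, 57407669 to 57591016, minus strand) was read 2, 1 and 0 times in the WT libraries and 3, 2 and 1 times in the cKO libraries. It was not tested because it did not pass the filter. A count of 0 in WT replicate 3 allows a level of up to 0.364 CPM (3 counts, counting error only). Every library of both genotypes was at or under 3 counts, so no fold is given, and an edgeR fit without the filter gave an unadjusted p of 0.479 (adjusted p = 0.830). Gabra5 also shares 148 exon bases with the predicted gene Gm9962 on the opposite strand.

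Among the β genes, Gabrb2 (NCBI gene 14401; chromosome 11, 42419515 to 42632591, plus strand) was at 88.3, 64.8 and 77.0 CPM in WT and 83.5, 88.2 and 80.8 CPM in cKO. The cKO libraries lay close together inside the wider WT range. The means were 76.7 ± 11.7 and 84.1 ± 3.73 CPM (SD, n = 3 each), with a log2 fold change of 0.14 (SE 0.10, 95% interval -0.07 to 0.34, edgeR adjusted p = 0.655). WT replicate 2 was the lowest of the 6 libraries, and without it the log2 fold change was 0.03. Between the replicate 1 libraries alone the log2 ratio was -0.08, and in replicates 2 and 3 alone the log2 fold change was 0.25 (edgeR adjusted p = 0.464).

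Gabrb1 (NCBI gene 14400; chromosome 5, 71657921 to 72149572, plus strand) differed between libraries of the same genotype far more than its fellow members. It was at 22.1, 36.4 and 39.5 CPM in WT and 38.3, 15.4 and 35.6 CPM in cKO, on 100 to 325 counts per library. WT replicate 1 and cKO replicate 2 were low, the other 4 libraries lay together, and the genotypes overlapped. The log2 fold change was -0.14 (SE 0.44, 95% interval -1.31 to 1.04, edgeR adjusted p = 0.942), an interval from 0.403-fold to 2.06-fold. Its sign was positive without WT replicate 3 (0.03) and without cKO replicate 2 (0.17). Between the replicate 1 libraries alone the log2 ratio was 0.80, and in replicates 2 and 3 alone the log2 fold change was -0.57 (edgeR adjusted p = 0.725).

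The SD of log2 CPM within genotype was 0.60 for Gabrb1. Of the 4275 tested genes with a mean level within 2-fold of it, 18 had a larger SD (0.421%), and their median SD was 0.155. By the same measure Gabrb2 had an SD of 0.16 (19.0% of genes of like level had a larger one), Gabra4 0.21 (68.8%), Gabra6 0.07 (79.0%), Gabrd 0.06 (87.2%) and Gabra2 0.19 (92.3%). Gabra4 starts head to head with Gabrb1, and the genes share 46 exon bases on opposite strands. Whether counting used strand is not given in the sources used here. Reads in those bases therefore cannot be told apart. In the libraries where Gabrb1 was low, Gabra4 was at 7.71 CPM (WT replicate 1) and 7.57 CPM (cKO replicate 2), toward the low end of its range of 7.38 to 10.2 CPM. WT replicate 3 was the highest of the 6 libraries for both genes. Gabra4 was lowest of all in WT replicate 2 (7.38 CPM), where Gabrb1 was not low (36.4 CPM). Whether the genes vary together was not tested.

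**Figure D3:**
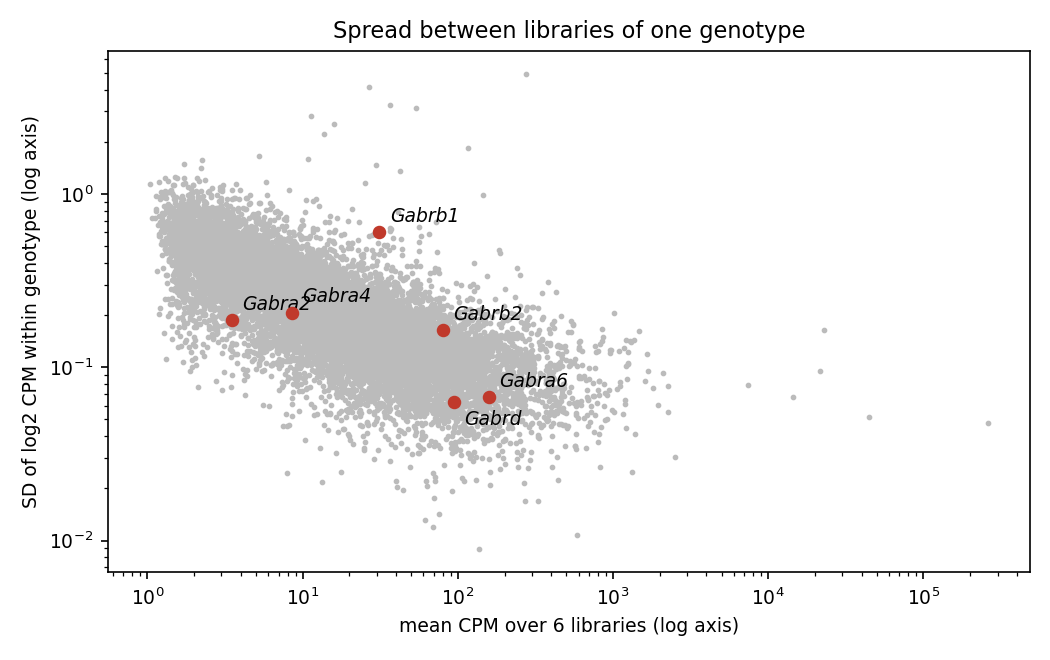
SD of log2 CPM between libraries of 1 genotype (log axis) against mean CPM over 6 libraries (log axis), with 1 grey point per tested gene and the 6 tested members in red. Gabrb1 lies at 0.60, above nearly all genes of its level, and the other members lie between 0.06 and 0.21, within the cloud.

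Marker sums of other cell types are given beside Gabrb1, which was lowest in WT replicate 1 and cKO replicate 2. Astrocyte and Bergmann glia markers (10 of 10 detected) summed to 377.8 to 385.5 CPM in WT and 337.0 to 385.2 in cKO, with WT replicate 1 at 385.5 and cKO replicate 2 at 371.7. Purkinje cell markers (9 of 9 detected) summed to 447.2 to 638.1 CPM in WT and 387.4 to 567.3 in cKO, with WT replicate 1 the highest of all 6 libraries and cKO replicate 2 the lowest. Markers of inhibitory interneurons and Golgi cells (13 of 13) were between 222.9 and 263.6 CPM in WT and between 217.0 and 240.0 in cKO. WT replicate 1 (222.9) and cKO replicate 2 (217.0) were the lowest. WT replicate 3, where Gabrb1 was highest, was close to WT replicate 1 at 228.7 CPM. Of this list, Gad1 and Gad2 were lowest in WT replicate 3 among WT (37.9 and 6.07 CPM). Among cKO they were lowest in replicate 2 (32.4 and 9.11 CPM). Unipolar brush cell markers (7 of 7) ranged from 342.7 to 377.4 and from 355.8 to 370.3 CPM. Oligodendrocyte lineage markers (12 of 12) ranged from 276.8 to 472.2 CPM in WT and from 332.8 to 740.1 in cKO, where replicate 3 was the highest. Microglia, vessel and forebrain marker sums were at most 34.0, 19.7 and 6.95 CPM. No marker on these lists was at 0 in every library. The part of other cell types in the Gabrb1 values was not tested.

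Gabrd (NCBI gene 14403; chromosome 4, 155384979 to 155398098, minus strand), the gene of the δ subunit, was the 1 member whose genotypes did not overlap. It was at 94.4, 87.9 and 85.9 CPM in WT and 103.9, 97.0 and 97.7 CPM in cKO. Every cKO library was above every WT library, which was the case for 7.88% of all genes tested. The means were 89.4 ± 4.45 and 99.5 ± 3.79 CPM (SD, n = 3 each). The log2 fold change was 0.16 (SE 0.09, 95% interval -0.02 to 0.33), with an unadjusted edgeR p of 0.0801 and an adjusted p of 0.500, so the difference did not pass the test. The interval allows at most a 1.26-fold higher level. The log2 ratio was 0.14 between the replicate 1 libraries and 0.16 in replicates 2 and 3.

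Set against α6 within each library, the δ gene gave a ratio of Gabra6 to Gabrd CPM of 1.72, 1.88 and 1.73 in WT and 1.45, 1.67 and 1.61 in cKO. All ratios in cKO were below those in WT. The ratios rest on the same Gabrd counts and were looked at after the values of Gabrd were seen, so no test is given.

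Of 9 other GABA-A subunit genes, 2 passed the filter and 0 were called, beside 0.579% of all genes tested. Gabrg3, the γ3 subunit, was counted 7 to 20 times per library and had a log2 fold change of 0.12 (95% interval -0.91 to 1.16, edgeR adjusted p = 0.954). Gabrr2, a ρ subunit best known from the retina, was counted 8, 9 and 11 times in WT and 20, 16 and 20 times in cKO. Its log2 fold change was 1.14 (SE 0.45, 95% interval 0.22 to 2.05), with an unadjusted edgeR p of 0.0172 and an adjusted p of 0.285.

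The GABA-B receptor is the metabotropic receptor for GABA, an obligate dimer of the Gabbr1 and Gabbr2 products with KCTD proteins as auxiliary subunits. Of 6 such genes 5 were tested and 0 called, beside 0.579% of all genes tested. Of the log2 fold changes 4 were positive, with a median of 0.15. Gabbr2 was at 185.6 CPM in WT and 205.9 CPM in cKO (log2 fold change 0.15, edgeR adjusted p = 0.461). Its cKO libraries all lay above its WT libraries, which was the case for 7.88% of all genes tested. Gabbr1 was at 233.1 and 250.2 CPM (log2 fold change 0.10, edgeR adjusted p = 0.689). Among the KCTD genes, the log2 fold changes were 0.18 for Kctd8 (edgeR adjusted p = 0.619), -0.02 for Kctd12 (0.982) and 0.58 for Kctd16 (0.644). The Kctd16 value rests largely on cKO replicate 1, where it had 35 counts against 14 to 20 in the other 5 libraries, and was 0.14 without it.

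**Figure D4:**
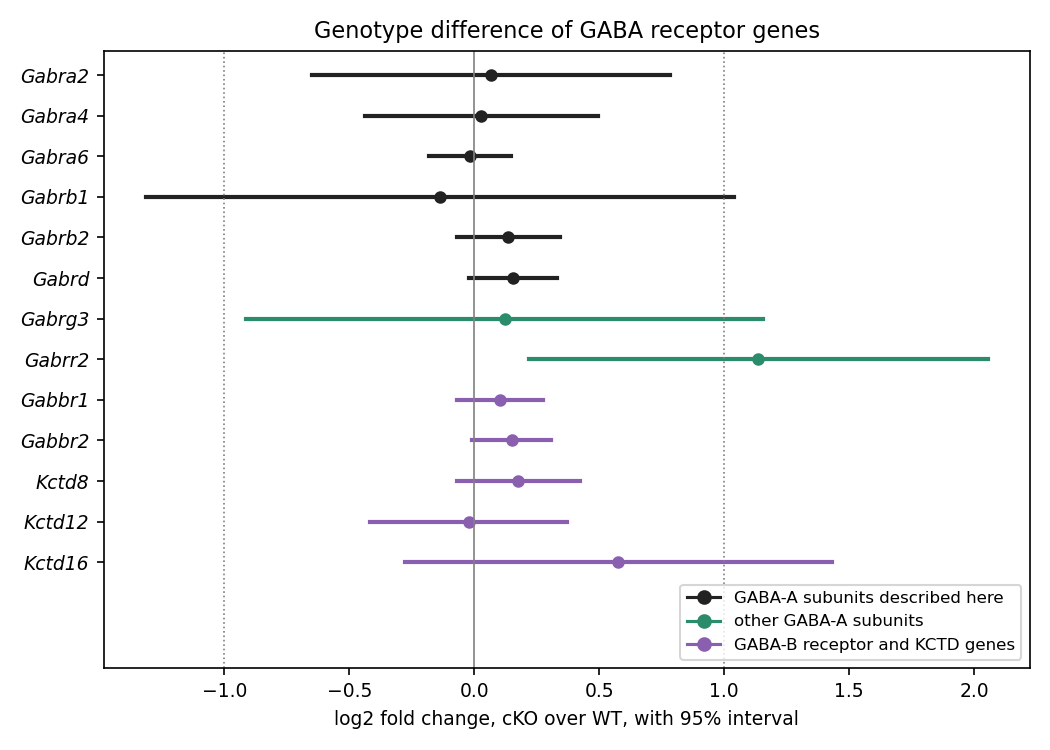
Log2 fold change of cKO over WT with its 95% interval from the edgeR fit for GABA-A and GABA-B receptor genes named in the text; dotted lines mark 2-fold. All intervals but that of Gabrr2, from 0.22 to 2.05, include 0. The intervals of Gabrb1, Gabrg3, Gabrr2 and Kctd16 are the widest.

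Among genes that act with the receptor 0 were called, beside 0.579% of all genes tested. Among 21 genes of the inhibitory postsynaptic scaffold and of receptor trafficking, all tested, 15 log2 fold changes were positive and 6 negative (median 0.15). Of these genes 7 had an unadjusted edgeR p below 0.05, beside 11.9% of all genes tested. Hap1, which helps return internalized receptors to the membrane, was at 75.9 CPM in WT and 96.4 CPM in cKO (log2 fold change 0.35, SE 0.10, edgeR adjusted p = 0.101). Mdga1, which encodes a protein that binds neuroligins, was at 26.0 and 36.4 CPM (log2 fold change 0.49, SE 0.14, edgeR adjusted p = 0.101). Both passed the threshold when no filter was applied (adjusted p = 0.0366 and 0.0384) or when cKO replicate 2 was left out (0.0449 and 0.0377), and Mdga1 also without WT replicate 1 (0.0429). In these settings calls over all genes also rose, from 76 to 277, 150 and 249. Without cKO replicate 1 the edgeR adjusted p were 0.426 for Hap1 and 0.362 for Mdga1. Gphn, the gene of gephyrin, the scaffold of inhibitory synapses, was at 92.1 and 81.4 CPM (log2 fold change -0.18, edgeR adjusted p = 0.444).

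Of 10 genes for GABA synthesis, vesicle loading, uptake and breakdown, 9 were tested and 0 called, beside 0.579% of all genes tested. Below an unadjusted edgeR p of 0.05 was 1 gene, beside 11.9% of all genes tested. That gene was Gad2, a GABA-synthesizing enzyme of inhibitory neurons, at 7.18 CPM in WT and 10.4 CPM in cKO (log2 fold change 0.54, edgeR adjusted p = 0.329). The summed markers of inhibitory interneurons, which include Gad2, overlapped between genotypes, and their part in this value was not tested. Aldh5a1, which breaks down GABA after transamination, had a log2 fold change of 0.27 (edgeR adjusted p = 0.484).

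The chloride gradient sets the direction of current through GABA-A receptors. Of 17 genes for chloride and bicarbonate balance, all tested, 6 log2 fold changes were positive and 11 negative (median -0.06). Of the 17 genes 0 were called and 5 had an unadjusted edgeR p below 0.05, beside 0.579% and 11.9% of all genes tested. Slc12a5, the chloride extruder KCC2 of mature neurons, was at 408.7 CPM in WT and 443.8 CPM in cKO (log2 fold change 0.12, edgeR adjusted p = 0.554). Slc12a2, the chloride importer NKCC1, was at 145.8 and 139.7 CPM (log2 fold change -0.06, edgeR adjusted p = 0.835). The kinases that phosphorylate these transporters differed in sign, Stk39 with a log2 fold change of -0.28 (edgeR adjusted p = 0.185) and Oxsr1 with 0.26 (edgeR adjusted p = 0.288). Without WT replicate 1 the edgeR adjusted p of Oxsr1 was 0.0288, and without WT replicate 2 it was 0.704.

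Of 4 genes for endogenous modulators of the receptor, 2 were tested and 0 called, beside 0.579% of all genes tested. Srd5a1, which makes precursors of neurosteroids that act on δ receptors, had a log2 fold change of -0.53 (edgeR adjusted p = 0.389), and Dbi, the diazepam binding inhibitor, of -0.13 (edgeR adjusted p = 0.907). All 4 nuclear factor I genes were tested, with log2 fold changes of 0.03 for Nfia, 0.09 for Nfib, -0.15 for Nfic and -0.10 for Nfix, and edgeR adjusted p of 0.953, 0.735, 0.549 and 0.677.

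Over all these lists apart from the members, 60 of 71 genes were tested. Their log2 fold changes were positive for 36 and negative for 24. By edgeR 0 were called, beside 0.579% of all genes tested, so 0 calls in lists this short say little about these genes. By limma-voom and DESeq2 0 were called as well. DESeq2 gave no adjusted p for 22 of them, beside 7522 of all 13115 genes tested. An unadjusted edgeR p below 0.05 was found for 15, beside 11.9% of all genes tested. The smallest adjusted p was 0.101. The genotypes did not overlap for 11 genes that were higher and 8 that were lower in cKO, beside 7.88% and 8.39% of all genes tested.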

How the data were processed

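Nuclear RNA was sequenced from NeuN-sorted, formaldehyde-fixed nuclei of the cerebellum, per the labels' protocols. The authors deposited whole-number counts per gene, not normalized, 1 column per library, and reads were handled with Subread against mm10 per the submitters' processing notes. Neither version, annotation, counted region nor strand is given in the sources used here. Of 24594 entries, 24570 matched RefSeq for GRCm38.p6, the source of symbols and positions. Exon lengths are from GENCODE for GRCm38.

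Counts were fitted in R 4.3.3 with edgeR 4.0.16 (filterByExpr, TMM factors of 0.982 to 1.02, robust quasi-likelihood test, two-sided, genotype only) over all 6 libraries, with Benjamini-Hochberg adjustment over 13115 genes and calls below 0.05. Alternatives used limma 3.58.1 (voom), DESeq2 1.42.0, other scalings, no filter and left-out libraries. CPM use table totals and TMM factors. SD of log2 CPM used a prior count of 2.

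The members and lists were chosen with earlier results of these data known. Named are all members, Ezh1, every tested gene of the GABA-A, GABA-B and nuclear factor I lists, and the 2 genes of smallest p of the others. Also named are the 3 protein-coding genes most correlated with Gabra6 (mean of at least 10 CPM, without genes named only by a model or clone identifier). Gphn, Slc12a5, Slc12a2 and Gabrr1 were added after their values were seen. A few genes of these lists are not reported here. No replicate pair agreed within sampling noise (chi-square over degrees of freedom, 4.03 to 5.0). No protein sequences were used here.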

Additional observations from a re-analysis of the deposited data

How the results depend on the processing

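Members called stayed at 0 under all 14 alternatives, and the 1 member without overlap between genotypes was the same count under 3 other scalings. Over all genes, 76 calls became 277 with no filter on low counts and 43 with only replicates 2 and 3 (the cause was not tested), and with libraries left out in turn they ranged from 13 (without WT replicate 3) to 249 (without WT replicate 1), with 18 without WT replicate 2, 14 without cKO replicate 1 and 150 without cKO replicate 2. Other scalings and tools gave 77 to 101. Among these DESeq2 gave 97, with no adjusted p for 7522 of the 13115 genes tested by edgeR. The order of levels changed at 1 pair (Gabra4 above Gabrb1) with gene span as length. Deviations of same-numbered libraries correlated at 0.151, 0.005 and -0.038 for replicates 1, 2 and 3, and the labels tie the numbers to no animal, litter or day, although replicate 1 differs in sex from replicates 2 and 3 in both genotypes and its correlation is the highest of the 9 combinations. A replicate block gave 90 calls and 0 members.

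Of 82 alternatives for the members' log2 fold changes, 70 kept the sign and 12 reversed it, all of values near 0 or, for Gabrb1, with a wide interval. The cause was not tested. With only replicates 2 and 3 the values were -0.012 for Gabra2, -0.057 for Gabra4, 0.024 for Gabra6, -0.288 for Gabrg3, 0.01 for Kctd12, 0.148 for Dbi and 0.006 for Nfix, and with library size alone 0.015 for Gabra6 and 0.012 for Kctd12. With libraries left out in turn the values ranged from -0.035 to 0.238 for Gabra2, -0.06 to 0.194 for Gabra4, -0.063 to 0.013 for Gabra6, -0.361 to 0.172 for Gabrb1, -0.09 to 0.638 for Gabrg3, -0.096 to 0.078 for Kctd12, -0.399 to 0.087 for Dbi, -0.098 to 0.137 for Nfia and -0.112 to 0.005 for Slc12a2. Depth limits Gabra5, Gabra2, Gabrg3 and the ρ genes, at 30 or fewer counts per library.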

Other observations

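The ρ subunit genes Gabrr1 and Gabrr2 lie side by side on chromosome 4 (33132556 to 33163588 and 33057712 to 33095865, GRCm38), and their counts differed in opposite directions between genotypes. Gabrr1 was counted 15, 13 and 9 times in WT and 5, 2 and 3 times in cKO. Gabrr2 was counted 8, 9 and 11 times in WT and 20, 16 and 20 times in cKO. The genotypes thus overlapped for neither gene. Among all genes tested, 7.88% were higher and 8.39% lower in cKO without overlap. Gabrr1 did not pass the filter on low counts. In an edgeR fit without that filter over 20674 entries the log2 fold changes were -1.74 for Gabrr1 (unadjusted p = 0.0157, adjusted p = 0.321) and 1.13 for Gabrr2 (unadjusted p = 0.0235, adjusted p = 0.384), so neither passed. The pair was chosen after its values were seen, and both genes rest on 20 or fewer counts per library.

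Across the 6 libraries the log2 CPM of Gabra6 correlated most with Iqce (Pearson r = 0.993, Spearman rho = 1.0, r = 0.977 without the 2 libraries farthest from the median), Rab37 (r = 0.991, rho = 1.0, r = 0.992 without those 2) and Nipsnap2 (r = 0.989, rho = 1.0, r = 0.986 without those 2). These are the 3 highest of 7931 protein-coding genes compared, with a mean of at least 10 CPM. Genes named only by a model or clone identifier were left out. The values of each library share its depth and scaling, and no p is given. The rho and the r without 2 libraries rest on the same values that chose these genes, so they are no separate check. How high the top values would be by chance was not tested. Gabra6 itself varied by an SD of 0.07 on the log2 scale within genotype, so the likeness describes small movements of 6 points.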
